A study of Homo sapiens with 6 samples.

Results

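The mRNA of 10 circadian clock genes was compared between MDA-MB-453 cells given 25(OH)D and cells given its solvent. The members are the clock activators ARNTL and CLOCK, the repressors PER1, PER2, PER3, CRY1 and CRY2, the E-box repressors BHLHE40 and BHLHE41, and the output gene DBP. They were taken from the count table by gene name, and all 10 were found among its 33451 genes. The line MDA-MB-453 was established from a human breast cancer, and 25(OH)D is the vitamin D metabolite that circulates in blood. The experimental group (EG) received 100 nM 25(OH)D and the control group (CG) its solvent, alcohol, both for 5 days, and mRNA was sequenced from 3 libraries of each group. The labels name no other agent and no allele in either group. All libraries came from a single cell line, and the sources used here give neither the hour of harvest nor any synchronisation of the cells, so each value is a level at a single harvest and no rhythm was measured.

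The circadian clock is a loop of transcription and repression that runs in nearly every cell. ARNTL, also called BMAL1, pairs with CLOCK and binds E-box elements in the promoters of the PER and CRY genes. The PER and CRY proteins then gather in a complex that silences ARNTL and CLOCK until it is degraded. BHLHE40 and BHLHE41 compete for the same E-boxes, and DBP carries the signal onwards to genes with D-box elements, to which the PER genes themselves belong. In a population of cells that are not in phase, the level of such a gene is an average over all phases.

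The libraries held between 33268860 and 40928176 counts. Genes of the mitochondrial genome took between 7.85% and 7.99% of the CG libraries and between 8.89% and 9.24% of the EG libraries, and the part of this shift in the values below was not tested. The 5 markers of the line used for this check (ERBB2, FGFR4, KRT8, KRT18 and KRT19) had mean levels over both groups between 36.6 and 297 RPKM, which are counts scaled to gene length and library total. They were not all constant between the groups. In the edgeR test described below, KRT19 was lower in 25(OH)D (log2 fold change -0.41). ERBB2, KRT8 and KRT18 were higher (0.22, 0.14 and 0.10), each of these 4 with an adjusted p under 0.05, while FGFR4 missed that threshold. ESR1 and PGR, the oestrogen and progesterone receptors, had at most 8 counts in any library. Of 8 markers of fibroblasts, leukocytes and endothelial cells, 7 had at most 16 counts in any library. The exception was the collagen gene COL1A1, and the summed level of the 8 markers was 3.86 to 4.08 RPKM in the CG libraries and 3.26 to 3.52 RPKM in the EG libraries. Their part in the results was not tested.

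On the scale of RPKM, the members spanned a wide range of levels. BHLHE40 was the highest, with a mean of 48.0 ± 1.53 RPKM in the CG libraries (SD, n = 3), and BHLHE41, its closest relative, was the lowest, with 0.246 ± 0.108 RPKM. Between them stood PER3 with 15.2 ± 1.12 RPKM, PER2 with 6.98 ± 0.481, CLOCK with 5.24 ± 0.120 and CRY1 with 4.02 ± 0.123 RPKM. CRY2 followed with 1.60 ± 0.150 RPKM, DBP with 1.52 ± 0.0988, ARNTL with 1.04 ± 0.152 and PER1 with 0.691 ± 0.0845 RPKM. In the CG libraries, only the neighbours CRY2 and DBP overlapped in this order. In the EG libraries the order of the means was the same. There CRY2 stood above DBP in every library, at 1.96 ± 0.140 against 1.09 ± 0.0831 RPKM, and only PER1 and BHLHE41 overlapped. The gene length used for RPKM covers all annotated exon bases, so levels of genes with long rare exons are understated.

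**Figure D1:**
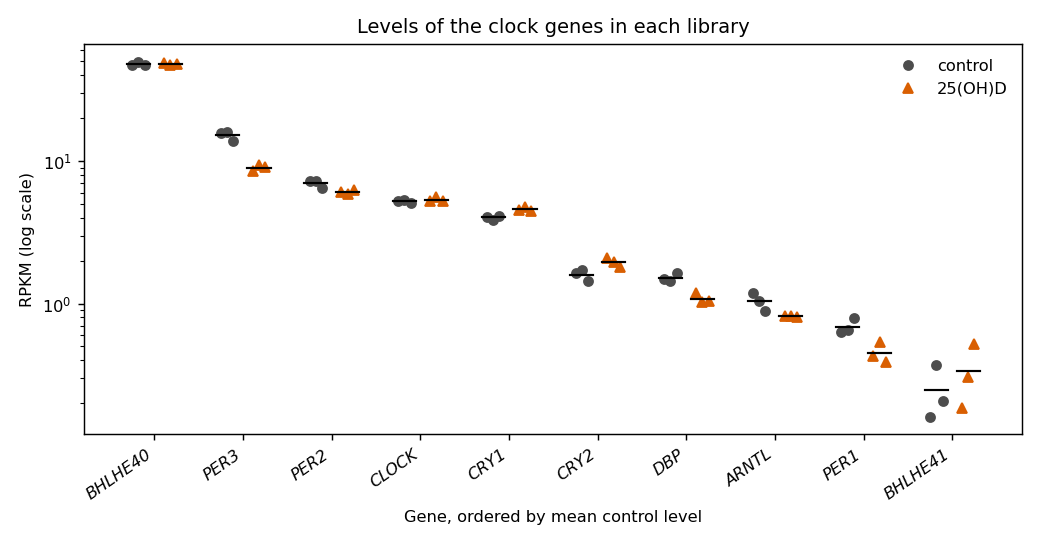
RPKM on a log scale (vertical axis) of the 10 clock genes in each library, ordered by the mean control level; circles are the 3 control libraries, triangles the 3 25(OH)D libraries and horizontal bars the group means. BHLHE40 lies near 48.0 RPKM in both groups, while PER3 goes from a mean of 15.2 to 8.97 RPKM.

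To compare the groups, log2 fold changes of 25(OH)D over control were fitted with the quasi-likelihood test of edgeR, and p-values were adjusted by the Benjamini-Hochberg method over all 18183 genes tested. A gene was called at an adjusted p under 0.05. All 10 members passed the low-count filter, and 5 were called: PER1, PER3 and DBP were lower, and CRY1 and CRY2 were higher. Of all genes tested, 33.8% were called, 16.5% lower and 17.3% higher. The median log2 fold change of the members was -0.06, against -0.01 over all genes tested. No member reached the limits drawn in the study, an absolute log2 fold change over 1 with an unadjusted p under 0.05, which 6.65% of all genes did, 2.63% lower and 4.02% higher. The groups did not overlap in CPM for 8 of the 10 members, against 45.7% of all genes tested. CPM are counts divided by the library size after TMM scaling. In bulk libraries like these, fewer cells with a transcript and less of it in each cell cannot be told apart.

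**Figure D2:**
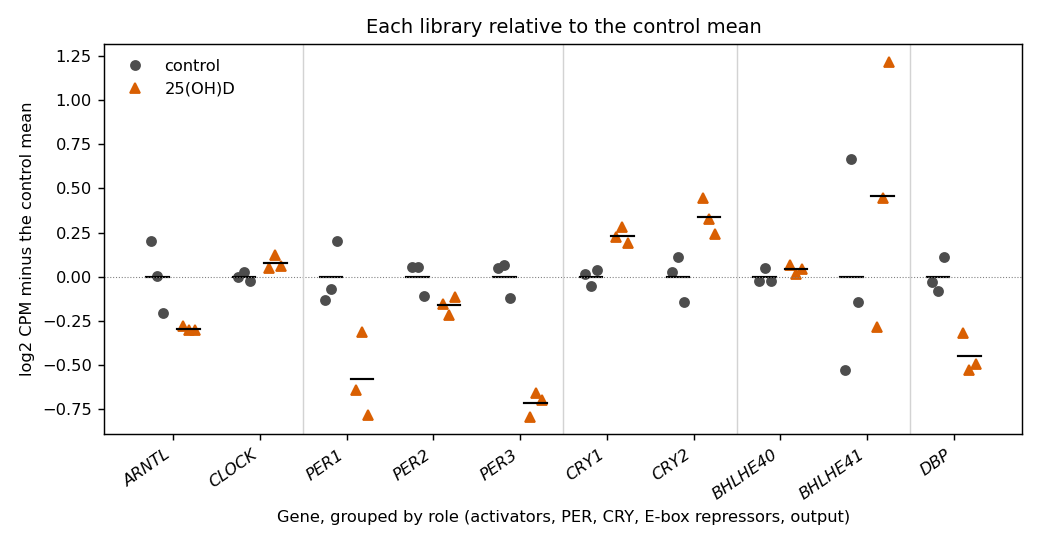
log2 CPM of each library minus the mean of the 3 control libraries (vertical axis) for the 10 clock genes, grouped by role; circles are control libraries, triangles 25(OH)D libraries and horizontal bars the group means. All 3 triangles lie below the circles for PER1, PER2, PER3, DBP and ARNTL, and above them for CRY1, CRY2 and CLOCK.

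Promoter sequence was searched for the elements through which the clock acts, in the RefSeq windows from 250 bases before to 50 bases after each gene start (GRCh38.p14). All 10 members matched a window, ARNTL under the name BMAL1. Both strands were searched. The E-box CACGTG was found for 3 members and a D-box, TTATGTAA or TTACGTAA, for 2, which is 3 and 2 of their 14 windows. Over 35116 windows of all genes, 7.26% held the E-box and 1.01% a D-box. The sites are shown because PER1 carried the E-box, while PER2 and PER3 carried D-boxes, the element of DBP. Capitals mark the element, and each line gives the strand of the gene from 5′ to 3′.
PER1, E-box, chr17:8152560-8152589, minus strand: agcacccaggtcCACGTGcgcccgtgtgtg
PER2, D-box, chr2:238288595-238288624, minus strand: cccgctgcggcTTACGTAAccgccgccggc
PER3, D-box, chr1:7784103-7784132, plus strand: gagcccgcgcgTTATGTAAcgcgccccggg
BHLHE40, E-box, chr3:4979187-4979209, plus strand: tccaaCACGTGagactcatgtga
BHLHE41, E-box, chr12:26125068-26125097, minus strand: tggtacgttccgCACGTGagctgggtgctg
The element began 173 bases before the gene start in PER1, 3 in PER2, 177 in PER3, 245 in BHLHE40 and 48 in BHLHE41. A pair of GGTCA copies with 4 bases between them, a strict form of the element bound by the vitamin D receptor, was found in no window of the members and in 0.0541% of all windows. A match is only a stretch of letters, and the absence of a match says nothing of other forms of an element or of sites outside the window.

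The 3 PER genes encode the period proteins, parts of the repressor complex. PER3 (chr1:7784320-7845177, plus strand of GRCh38) changed most. It had 125, 127 and 112 CPM in the CG libraries and 70.0, 76.8 and 74.7 CPM in the EG libraries. Every 25(OH)D library was thus far below every control library. The mean fell from 121 ± 8.42 to 73.8 ± 3.46 CPM (mean ± SD, n = 3), a log2 fold change of -0.72 (standard error, SE, 0.0566, edgeR quasi-likelihood adjusted p = 2.13e-07). This is a change of -39.1% in the transcript. The 95% interval of the log2 fold change was -0.84 to -0.59. By its p-value PER3 ranked 543 of the 18183 genes, and 5.57% of genes had a larger fall. It was called in all 11 other settings with all libraries and in all 6 that left out a library.

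PER1 (chr17:8140472-8156506, minus strand), the period gene that responds quickest to outside signals, was far less abundant. Its counts were 180, 171 and 201 in the CG libraries and 107, 147 and 90 in the EG libraries, which is 4.32, 4.52 and 5.46 CPM against 3.04, 3.82 and 2.76 CPM. The groups did not overlap, but 25(OH)D replicate 2 came close to the CG libraries. PER1 fell with a log2 fold change of -0.56 (SE 0.165, edgeR quasi-likelihood adjusted p = 0.0167), and its 95% interval was -0.92 to -0.21. The call was lost without control replicate 3 (adjusted p = 0.0795), without 25(OH)D replicate 1 (0.0593) and without 25(OH)D replicate 3 (0.0624), with the log2 fold change between -0.71 and -0.45 over the 6 fits that left out a library.

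PER2 (chr2:238244038-238290102, minus strand), the second most abundant period gene, moved least. It had 49.1, 49.0 and 43.8 CPM in the CG libraries and 42.5, 40.7 and 43.7 CPM in the EG libraries. Control replicate 3 lay within 0.1 CPM of 25(OH)D replicate 3, so the groups were separated by almost nothing. The log2 fold change was -0.16 (SE 0.0616, 95% interval -0.30 to -0.03), and the adjusted p of 0.0563 in edgeR's quasi-likelihood test missed the threshold. It passed without control replicate 3 (adjusted p = 0.0201), with upper-quartile factors (0.0172) and with library sizes alone (0.0184).

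Reads near the PER3 locus need a reservation. Its exons share 868 bases with UTS2 and 482 with RP3-467L1.4, both on the opposite strand, out of 8099. These genes had 150 to 197 and 589 to 775 counts in the CG libraries, against 4111 to 5223 for PER3, and both were lower in 25(OH)D, with log2 fold changes of -0.63 (adjusted p = 0.0224) and -0.68 (adjusted p = 2.94e-05) in edgeR's quasi-likelihood test. The library kit was stranded, but whether the counting used strand is not given in the sources used here. Across the table, genes lying almost wholly inside the exons of another gene had a median of 0.600 of its read density when on the opposite strand (197 genes) and 0.639 when on the same strand (75 genes), so reads of genes on opposite strands cannot be told apart here. When the reads expected from the overlapping genes were subtracted, between 9.37% and 12.1% of the PER3 counts, the log2 fold change of PER3 was again -0.72 (edgeR quasi-likelihood adjusted p = 4.11e-07). Both overlapping genes fell almost as much as PER3, so this subtraction could hardly move the estimate, and the reservation stands. No 100-base stretch of any member's transcripts was shared with another gene.

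CRY1 and CRY2 encode the cryptochromes, which join PER in the complex and block ARNTL and CLOCK directly. Both rose, in the direction opposite to PER1 and PER3. CRY1 (chr12:106991364-107093829, minus strand) had 20.2, 19.3 and 20.6 CPM in the CG libraries and 23.4, 24.4 and 22.9 CPM in the EG libraries. Its groups were clearly apart, with an SD within each of under 1 CPM. The rise from 20.1 ± 0.678 to 23.6 ± 0.766 CPM (SD, n = 3 each) gave a log2 fold change of 0.23 (SE 0.0681, 95% interval 0.09 to 0.38, edgeR quasi-likelihood adjusted p = 0.0165).

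CRY2 (chr11:45847118-45883248, plus strand) had 9.94, 10.5 and 8.83 CPM in the CG libraries and 13.3, 12.2 and 11.5 CPM in the EG libraries. All 3 values of 25(OH)D again exceeded all 3 of the control group. It rose with a log2 fold change of 0.34 (SE 0.0991, 95% interval 0.12 to 0.55, adjusted p = 0.0174). Both calls depended on the test and on single libraries. With limma on log2(RPKM + 0.1), which uses library totals as deposited, the adjusted p was 0.0631 for CRY1 and 0.0987 for CRY2. In edgeR's quasi-likelihood test with library sizes alone, it was 0.0478 for CRY1 and 0.0370 for CRY2. The call of CRY1 was lost without control replicate 2 (adjusted p = 0.0650) or 25(OH)D replicate 2 (0.0657), and that of CRY2 without control replicate 3 (0.0660) or 25(OH)D replicate 1 (0.0715), all from edgeR's quasi-likelihood test, while the log2 fold changes stayed at 0.15 or above in every setting.

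The activators did not pass the test. CLOCK (chr4:55427903-55547138, minus strand), which has histone acetyltransferase activity beside its DNA binding, had 60.6, 62.0 and 59.7 CPM in the CG libraries and 62.8, 66.2 and 63.4 CPM in the EG libraries. The groups did not overlap in CPM, but they did in RPKM (5.24, 5.36 and 5.12 in CG against 5.24, 5.59 and 5.28 in EG), which have no TMM scaling. The difference was small, with a log2 fold change of 0.08 (SE 0.0492, edgeR quasi-likelihood adjusted p = 0.247). Its 95% interval reached from -0.03 to 0.18, so that a rise of more than 13.7% lay outside it. ARNTL (chr11:13276652-13387266, plus strand) had 7.88, 6.85 and 5.92 CPM in the CG libraries and 5.63, 5.54 and 5.55 CPM in the EG libraries. Here the CG libraries were spread out and the EG libraries nearly equal, below the lowest control. The log2 fold change was -0.31 (SE 0.128, 95% interval -0.58 to -0.03, adjusted p = 0.0833). ARNTL was called lower without control replicate 3 (adjusted p = 0.0357), with upper-quartile factors (0.0476) and with library sizes alone (0.0497), while without control replicate 1 the log2 fold change was -0.19 (0.340). Both scalings brought the members called lower from 3 to 5.

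BHLHE40 and BHLHE41, also known as DEC1 and DEC2, repress transcription at E-boxes. BHLHE40 (chr3:4979116-4985323, plus strand), the most abundant member, had 179, 188 and 178 CPM in the CG libraries and 190.1, 184 and 187 CPM in the EG libraries. The groups overlapped, and the log2 fold change of 0.04 (SE 0.0394, edgeR quasi-likelihood adjusted p = 0.465) had a 95% interval of -0.04 to 0.13. With library sizes alone or upper-quartile factors it was just below 0. BHLHE41 (chr12:26120026-26125127, minus strand) rested on 26, 54 and 30 counts in the CG libraries and 26, 47 and 68 counts in the EG libraries. Its libraries differed more within a group than the groups did, with coefficients of variation of 43.9% and 50.6% in CPM. The log2 fold change was 0.49 (SE 0.392, adjusted p = 0.371), with a 95% interval of -0.35 to 1.34. Leaving out a library moved the log2 fold change to between 0.06, without 25(OH)D replicate 3, and 0.91, without control replicate 2, and it was called in none of these fits.

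DBP (chr19:48630030-48637438, minus strand) encodes a D-box activator whose gene is a direct target of ARNTL and CLOCK. It had 9.61, 9.28 and 10.6 CPM in the CG libraries and 7.88, 6.81 and 6.97 CPM in the EG libraries. The lowest control library was above the highest 25(OH)D library by more than the spread within either group. DBP fell from 9.83 ± 0.683 to 7.22 ± 0.576 CPM (mean ± SD, n = 3), with a log2 fold change of -0.44 (SE 0.106, 95% interval -0.67 to -0.22, edgeR quasi-likelihood adjusted p = 0.00479). Like PER3, it was called in all 17 other settings. DBP shares 661 of its 6544 exon bases with SPHK2 on the opposite strand, and with the reads expected from SPHK2 subtracted (13.7% to 18.9% of the counts) its log2 fold change was -0.48 (adjusted p = 0.00508). SPHK2 itself had a log2 fold change of -0.26 (edgeR quasi-likelihood adjusted p = 0.0669). This is a smaller fall than that of DBP, so the subtraction could only enlarge the fitted fall. As at PER3, reads of DBP and SPHK2 could not be told apart, and the reservation stands.

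Ratios between members within the same library do not depend on how libraries are scaled to each other. The 12 ratios were chosen after the counts had been seen, and 7 of them did not overlap between the groups. For 3 libraries against 3 the two-sided exact permutation test cannot give a p under 0.1, and after adjustment over the 12 ratios these 7 had an adjusted p of 0.171. The ratio of PER3 to PER2 was 2.17, 2.20 and 2.17 in the CG libraries, an almost constant value. In the EG libraries it was 1.40, 1.60 and 1.45, below every CG library. PER3 made up 66.4% ± 0.514 of the summed RPKM of the 3 PER genes in the CG libraries and 58.0% ± 1.42 in the EG libraries (SD, n = 3 each). PER2 made up 30.5% ± 0.172 and 39.1% ± 1.79, and PER1 3.04% ± 0.591 and 2.91% ± 0.481.

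The ratio of PER to CRY also did not overlap between the groups. It mainly restates the changes of PER3 and CRY1, which made up 66.4% and 71.5% of their family sums in the CG libraries. The summed RPKM of the 3 PER genes over that of the 2 CRY genes was 4.15, 4.25 and 3.81 in the CG libraries and 2.26, 2.35 and 2.50 in the EG libraries. The lowest control library thus stood well above the highest 25(OH)D library. CLOCK to ARNTL went the other way, from 4.40, 5.18 and 5.76 to 6.37, 6.84 and 6.53. Neither gene was called by itself, and this ratio mainly restates ARNTL, whose log2 fold change was -0.31 against 0.08 for CLOCK. The ratio of CRY1 to CRY2 overlapped between the groups (2.53 ± 0.311 against 2.35 ± 0.162, SD, n = 3 each), as did PER3 to PER1, PER2 to PER1 and BHLHE40 to BHLHE41. DBP over its relative TEF was 0.423 ± 0.0650 in the control and 0.419 ± 0.0630 in the EG libraries, a pair of values that differed by less than the spread between replicates.

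**Figure D3:**
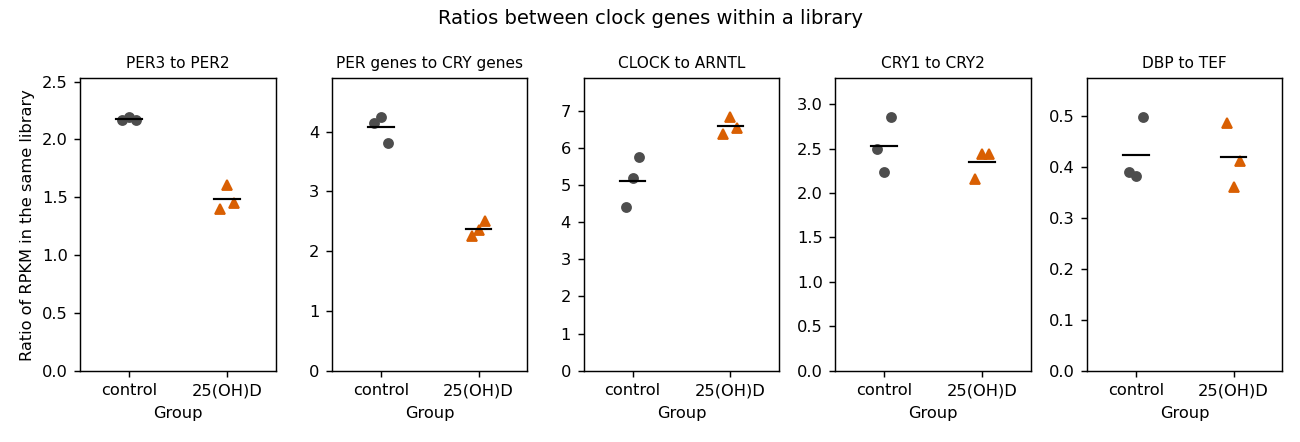
Ratio of RPKM within the same library (vertical axes, each from 0) for 5 pairs of genes or gene groups; circles are the 3 control libraries, triangles the 3 25(OH)D libraries and bars the means. PER3 to PER2 and PER to CRY are lower and CLOCK to ARNTL higher in every 25(OH)D library, while CRY1 to CRY2 and DBP to TEF overlap.

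Of 22 further genes of the clock pathway, 21 were listed in the table and 18 passed the low-count filter. In the same test 7 were lower and 3 higher, 55.6% of those tested, beside 33.8% of all genes, with a median log2 fold change of -0.18. FBXL21 is not listed in the table, and RORB, USP2 and ARNTL2 had at most 4 counts in any library. None of the 18 passed the limits of the study. Among the activators, NPAS2, which can stand in for CLOCK, fell from 1.87 ± 0.421 to 0.981 ± 0.329 CPM (mean ± SD, n = 3), a log2 fold change of -0.92 (SE 0.292, edgeR quasi-likelihood adjusted p = 0.0247). It rested on few reads, 53 to 95 counts in the control and 22 to 49 in the EG libraries, and lost its call without control replicate 1 (adjusted p = 0.109), control replicate 2 (0.0648) or 25(OH)D replicate 1 (0.0994), and in all 3 limma settings.

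The second loop of the clock sets the level of ARNTL through ROR activators and NR1D repressors. RORA fell from 5.80 ± 0.471 to 3.77 ± 0.443 CPM (mean ± SD, n = 3), a log2 fold change of -0.62 (SE 0.140, adjusted p = 0.00322). The call was lost with limma on log2(RPKM + 0.1) without a filter (adjusted p = 0.246). The repressors NR1D1 and NR1D2, also called REV-ERB alpha and beta, were not called, with log2 fold changes of 0.35 (95% interval -0.37 to 1.08) and -0.14 (-0.37 to 0.08). NR1D1 had only 22 to 33 counts in the CG libraries and 25 to 48 in the EG libraries, and 9.49% of its exon bases are shared with THRA on the opposite strand. THRA had 423 to 581 counts in the CG libraries and 323 to 347 in the EG libraries. It was called lower, with a log2 fold change of -0.43 (edgeR quasi-likelihood adjusted p = 0.00500). The part of THRA reads in the NR1D1 counts was not tested.

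All 3 further D-box factors had negative log2 fold changes, as DBP did. TEF, an activator of the same PAR bZIP family, had 17.7, 17.5 and 15.3 CPM in the CG libraries and 11.7, 13.6 and 12.2 CPM in the EG libraries, and fell with a log2 fold change of -0.43 (SE 0.0911, adjusted p = 0.00200). NFIL3, which represses at the same element, fell with -0.52 (adjusted p = 0.0364), a call that, among the 6 fits that left out a library, held only without 25(OH)D replicate 3 (adjusted p = 0.0113), and that was lost in the same limma setting as RORA (0.0811). HLF had -0.62 with an adjusted p of 0.0712, and its groups overlapped. HLF was called lower without control replicate 3 (log2 fold change -0.86, adjusted p = 0.00371), without the low-count filter (0.00603) and with a replicate block (0.0313), and had -0.37 (0.333) without control replicate 2. TIMELESS, which in human cells serves mainly at the replication fork, fell from 363 ± 2.76 to 294 ± 17.0 CPM (mean ± SD, n = 3), a log2 fold change of -0.30 (edgeR quasi-likelihood adjusted p = 6.76e-05). CIART, another repressor, was not called (adjusted p = 0.304).

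The kinases and ubiquitin ligases of the clock set the lifetime of PER and CRY proteins. CSNK1E, the casein kinase that marks PER for degradation, fell from 29.7 ± 1.19 to 23.2 ± 1.57 CPM (mean ± SD, n = 3), with a log2 fold change of -0.36 (adjusted p = 0.00121). Its close relative CSNK1D had 0.09 (adjusted p = 0.192, 95% interval -0.02 to 0.19), and GSK3B fell with -0.21 (adjusted p = 0.00280). BTRC and FBXW11, the ligase subunits that bind phosphorylated PER, rose with 0.25 (adjusted p = 0.0127) and 0.30 (adjusted p = 0.0287). FBXW11 lost its call without control replicate 3 (adjusted p = 0.1004), 25(OH)D replicate 1 (0.0769) or 25(OH)D replicate 2 (0.0699) and with library sizes alone (0.0620). BTRC lost its call without control replicate 2 (0.0517), and both genes lost theirs in all 3 limma settings.

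Of the 5 output genes of the list, TSC22D3 changed most in the whole list by p-value. TSC22D3, a leucine zipper gene also induced by glucocorticoids, had 103, 95.8 and 97.9 CPM in the CG libraries and 168, 182 and 194 CPM in the EG libraries. It rose with a log2 fold change of 0.87 (SE 0.0533, edgeR quasi-likelihood adjusted p = 1.31e-08), and no alternative removed the call. WEE1, NAMPT and KLF10 were not called, with 95% intervals of -0.12 to 0.29, -0.13 to 0.17 and -0.44 to 0.13 for the log2 fold change.

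**Figure D4:**
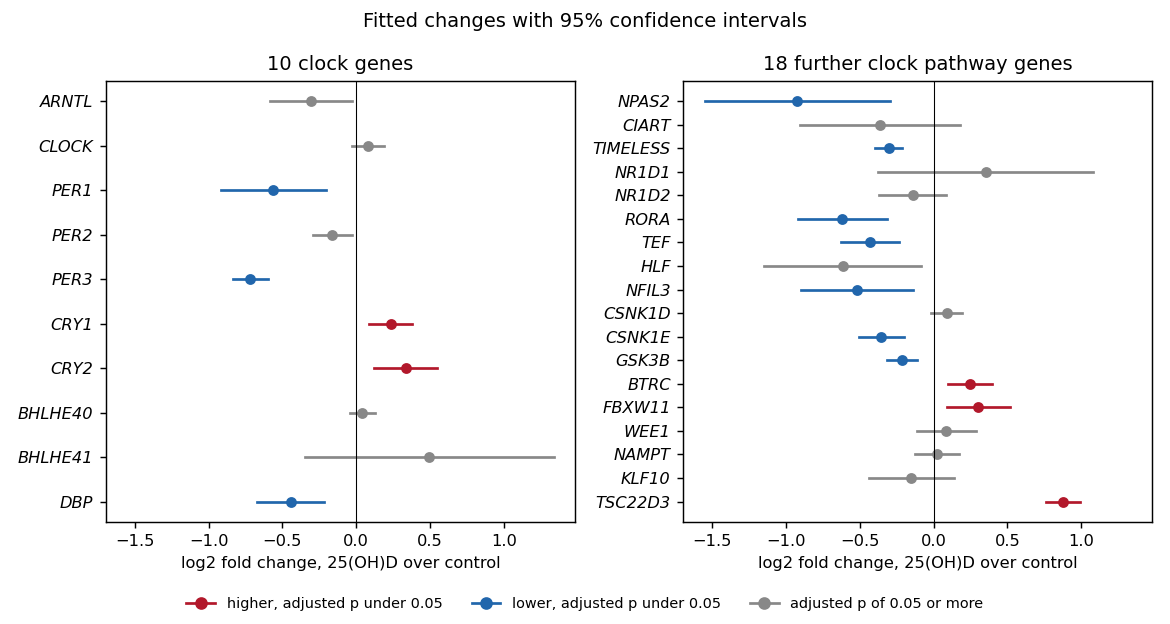
Log2 fold change of 25(OH)D over control (horizontal axis) with 95% confidence intervals for the 10 clock genes (left) and 18 further genes of the pathway (right), from edgeR's quasi-likelihood fit; blue marks genes called lower, red genes called higher and grey genes not called. PER3 lies at -0.72 with a narrow interval, while BHLHE41 and NR1D1 have the widest.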

How the data were processed

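Messenger RNA of 3 control and 3 25(OH)D libraries, which the study calls biological replicates, was sequenced, and libraries were grouped by their titles. The authors deposited raw counts per gene and RPKM values. Per the labels, reads were trimmed with Trimmomatic 0.36 and counted with featureCounts of Subread 1.5.1 on GRCh38; the aligner and annotation release are not given in the sources used here. Each deposited RPKM equalled count divided by gene length and library total (largest relative difference 5.1e-15). Of values from 1 to 10, 68.5% were even. Whether both mates of a pair were counted is not given in the sources used here; if they were, a count stands for fewer fragments than reads.

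The test across genes used edgeR 4.0.16 in R 4.3.3 (TMM, default low-count filter with a minimum count of 10, quasi-likelihood test without covariates, fitted on all genes; the test was first run on simulated data). Alternatives were DESeq2 1.42.0, limma 3.58.1 on log2(RPKM + 1) or log2(RPKM + 0.1), other scalings and filters, a replicate block and omission of each library. Subtraction of reads on shared exon bases was added after seeing the data. Other steps used Python 3.11.15 and scipy 1.17.1.

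The members and gene lists were chosen with earlier results of these data known. The rule named all 10 members, genes of the wider clock list at an adjusted p under 0.05, and the 3 genes closest to the member with the smallest p. The lists as first written held a few more genes, which are not reported here. All 8 tested genes of the wider list that missed the threshold are named as well, a step outside that rule taken after their values were seen. No replicate libraries were duplicates of each other (chi-square per gene between 4.01 and 12.1).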

Additional observations from a re-analysis of the deposited data

How the results depend on the processing

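Over the 11 alternatives with all libraries, PER3 and DBP kept direction and call, and PER1 lost its call in 1, limma on log2(RPKM + 0.1) without a filter (adjusted p = 0.180). The number of members called higher was 0 in place of 2 with limma on log2(RPKM + 1), on log2(RPKM + 0.1), and on the latter without a filter. The number called lower was 5 in place of 3 with upper-quartile factors and with library sizes alone. Leaving out each library gave 1 to 2 members higher and 2 to 4 lower. In the wider list, 1 gene in place of 3 was higher in the same limma settings, and 4 in place of 7 were lower in the one without a filter; leaving out each library gave 2 to 3 higher and 5 to 7 lower. No member reached the limits of the study in any setting. BHLHE40 reversed to -0.00031 with upper-quartile factors, -0.0030 with library sizes alone, -0.0024 with limma on log2(RPKM + 1) and -0.0025 on log2(RPKM + 0.1), with or without a filter. NAMPT reversed in the same settings, to -0.017, -0.019, -0.016 and -0.021. None of these was called; the cause was not tested. Same-numbered libraries showed no shared deviation from their group means (correlations -0.072, -0.012 and -0.046). This cannot show whether they were handled together, which the labels do not say. The replicate block gave 2 members higher and 3 lower, and 3 and 8 in the wider list. BHLHE41 and NR1D1, with 22 to 68 counts in any library, had wide intervals that span 0; the part of depth in this was not tested.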

Other observations

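By the root mean square distance of centred log2 CPM over the 6 libraries, the genes closest to PER3 among 12702 with at least 100 counts on average were FAM27E3 (0.038), TNK2-AS1 (0.040) and RP1-261G23.7 (0.046), 3 genes on chromosomes 9, 3 and 6 with log2 fold changes of -0.68, -0.66 and -0.67. The measure says nothing of shared control. UTS2, the gene of the peptide urotensin 2, lies opposite PER3, and its values stand with those of PER3 above, since its reads could not be told from them.

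In the 17 genes of the wider list with a RefSeq promoter window, 4 held the E-box CACGTG and 1 a D-box in at least 1 window, against 3 and 2 of the 10 members. The share of even values fell from 68.5% among counts of 1 to 10 to 59.6% among 11 to 50 and 55.3% among 51 to 200.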
